A study of Mus musculus with 12 samples.

Results

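The 8 ABC efflux transporters Abcg2, Abcb1a, Abcb1b, Abcc1, Abcc4, Abcc5, Abca1 and Abcg1 were followed across mouse hematopoietic stem cells. They were taken by gene name from a table of 20457 genes. All 8 were in the table and passed the filter on low values, which required at least 3 of the 12 libraries to reach 10 on the linear scale and which 14803 genes passed. The libraries were made from C57BL/6 bone marrow stem cells, 50 cells to a library. Their cDNA was amplified by Smart-Seq2, which copies whole transcripts. The 4 groups of 3 libraries were old IL27RA+ cells, old IL27RA- cells, young IL27RA+ cells and young IL27RA- cells. Old mice were 28 months of age and young mice 2 months. IL27RA is a surface receptor subunit for the cytokine IL27, and the cells were sorted by its presence. The source label of old IL27RA- replicate 1 says young, but its title and age say old, and it was kept as old. Separate animals are not named for the libraries of a group. The p-values therefore reflect the spread between these samples alone, and that spread may be technical.

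ABC transporters are membrane pumps that burn ATP to move a substrate across the membrane. The ABCG2 and ABCB1 pumps push drugs and dyes out of cells. Dye efflux by ABCG2 marks the side population of marrow, in which stem cells are enriched. The ABCC pumps export organic anions, glutathione conjugates and nucleotides, while ABCA1 and ABCG1 hand cellular cholesterol to lipoproteins and limit the growth factor response of stem cells.

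The 12 libraries held between 11.7 M and 24.2 M reads in genes. Levels below are normalized counts, the read count divided by the library's size factor, and differences are on the scale of log2(normalized count + 1). All 13 stem cell markers had reads in every group, and their summed level ran over 70513 to 78877 in old IL27RA+, 85838 to 99642 in old IL27RA-, 71529 to 76595 in young IL27RA+ and 77569 to 93051 normalized counts in young IL27RA- libraries. In the averaged sort difference 12 of these 13 were negative (median -0.21), 4 with an unadjusted p under 0.05, and none was called (lowest limma adjusted p 0.0565). Over all genes 54.16% were positive in that comparison (median 0.05). The share of all genes under the unadjusted threshold was not computed, so the 4 have no background beside them. Macrophage markers stood higher in the IL27RA+ fractions, with 12 of the 13 that passed the filter positive in the averaged sort difference, and 3 of them called. Their summed level was 1037 to 5982 in old IL27RA+ and 538 to 1444 in old IL27RA- libraries. It was 2961 to 5600 in young IL27RA+ and 576 to 620 in young IL27RA- libraries. The macrophage marker Emr1 was at 0 in all IL27RA- libraries, while Csf1r averaged 361 in old IL27RA+ and 375 in old IL27RA- libraries, and Mertk 32.3 in old IL27RA+ and 60.6 normalized counts in old IL27RA- libraries. Erythroid markers were positive in 9 of 9 in the averaged sort difference (median 2.15) and also in young cells (median 3.63), and neutrophil markers in 5 of 6 (median 2.65). None of either list was called by sort. Summed erythroid markers ran over 827 to 1794 in old IL27RA+, 619 to 900.4 in old IL27RA-, 739.9 to 5822 in young IL27RA+ and 445 to 1088 normalized counts in young IL27RA- libraries. Summed neutrophil markers, mostly Prtn3, ran over 7796 to 10649.9 in old IL27RA+, 9052 to 13163 in old IL27RA-, 4075 to 5484 in young IL27RA+ and 3646 to 4436 in young IL27RA- libraries. In the averaged age difference 2 of 9 megakaryocyte and platelet, 1 of 6 neutrophil and 1 of 13 macrophage markers were called higher. Of the stroma and endothelium markers 1 of 7 was called lower by age, where 1.85% of all genes were called. By sort, 1 of 9 megakaryocyte and platelet markers was called lower in the averaged difference, against 0.189% of all genes. The part of these markers in the differences below, by age or by sort, including the low Abcb1a and Abcg2 values of young IL27RA+ cells, was not tested. Old IL27RA- replicate 1 held 313703 normalized counts of B and T cell markers, nearly all of them of the antibody light chain, against at most 1290 in any library of the other groups. In pooled cells, fewer cells with a transcript and less transcript per cell cannot be told apart.

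Between old and young cells the P-glycoprotein genes Abcb1a and Abcb1b had the largest averaged differences of the 8 transporters. Abcb1b was higher in all 6 old libraries than in any of the 6 young ones. Its averaged difference of 1.42 missed the threshold over all genes. Abcb1a was lowest in young IL27RA+ cells. Levels of Abcc1, Abcc4 and Abcc5 overlapped between all groups. None of the 8 transporters passed the threshold of 0.05 in any comparison. In limma's test, 2 transporters had an unadjusted p under 0.05 in the averaged age comparison and 1 in the averaged sort comparison. The share of all genes under that unadjusted threshold was not computed, so these counts have no background beside them. With voom on the recovered reads 1 transporter, Abcb1b, was called by age, among 262 of 14803 genes. At the adjusted threshold, limma called 1.85% of all genes tested between the ages and 0.189% between the fractions in the averaged comparisons. The medians over the transporters were 0.08 by age and 0.07 by sort, against 0.06 and 0.05 over all genes.

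**Figure D1:**
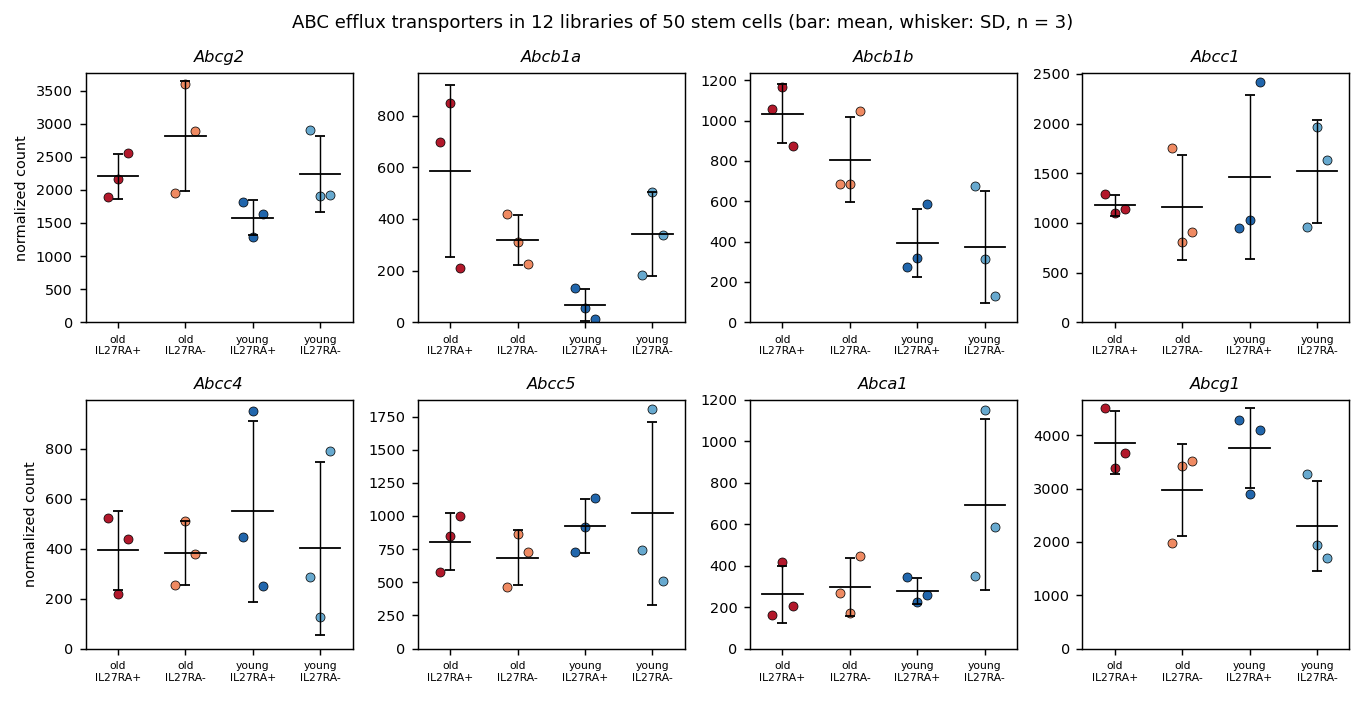
Normalized counts of the 8 transporters (vertical axes, linear, 1 panel each) in the 12 libraries, with groups along the horizontal axis from old IL27RA+ at the left to young IL27RA- at the right. Points are libraries, bars are means and whiskers SD over 3 libraries. The 6 old libraries of Abcb1b lie between 684 and 1168, and the 6 young ones between 131 and 673.

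Per kilobase of exon, Abcg1 and Abcg2 averaged above the other 6 transporters. The exon length used joins all annotated exons of a gene, from 5480 bases for Abcb1a to 15092 for Abcc1. It is not the length of a single transcript, so the order per kb depends on the annotation. The cholesterol pump Abcg1 averaged 442 ± 127 and the dye pump Abcg2 271 ± 80.2 normalized counts per kb (SD, n = 12). Abcc1 followed at 88.1 ± 33.4, Abcb1b at 81.5 ± 42.8, Abcc5 at 80.6 ± 33.4, Abcc4 at 67.5 ± 37.9, Abcb1a at 59.9 ± 46.2 and Abca1 at 36.9 ± 26.3 normalized counts per kb. Abcg1 was above Abcg2 in 11 of 12 libraries, and Abcg2 above Abcc1 in all 12. From Abcc1 downward each gene was above the next in only 6 to 8 of 12 libraries, so the order of these neighbours did not hold beyond their spread. The most even genes were Abcg1 and Abcg2, with coefficients of variation of 28.9% and 29.6% over the 12 libraries, against 77.2% for Abcb1a and 71.4% for Abca1.

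**Figure D2:**
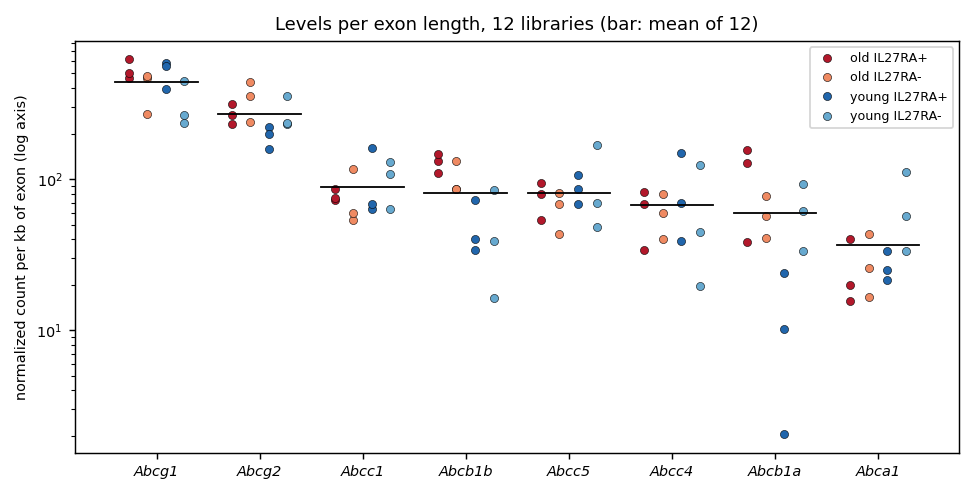
Normalized count per kb of exon (vertical log axis) of the 8 transporters, ordered by their mean, in 12 libraries coloured by group. Each point is a library and each bar the mean of 12. The means of Abcg1 and Abcg2 sit above those of the other 6, whose libraries overlap, and the lowest Abcg2 library (159) lies below the highest of Abcc5 (169) and Abcc1 (160.2).

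Abcg2 encodes the half-transporter BCRP, whose dimer pumps out the dye Hoechst. The gene lies on the plus strand of mouse chromosome 6, at chr6:58584523-58695676 (GENCODE annotation, GRCm38). In old cells Abcg2 stood at 1892, 2159 and 2564 normalized counts in the IL27RA+ libraries and at 1947, 3603 and 2889 in the IL27RA- libraries. In young cells it stood at 1813, 1294 and 1629 in the IL27RA+ and at 2906, 1901 and 1916 in the IL27RA- libraries. The young IL27RA+ libraries were the lowest, below every library of the other groups. Old IL27RA+ minus young IL27RA+ was 0.48 ± 0.28 (log2, SE), 95% interval -0.10 to 1.07, and limma gave an adjusted p of 0.665. The IL27RA+ minus IL27RA- difference was -0.32 ± 0.28 in old cells (limma adjusted p = 1) and -0.49 ± 0.28 in young cells (adjusted p = 0.664). Averaged over the ages it was -0.40 ± 0.19, interval -0.82 to 0.01, adjusted p = 0.650. The averaged age difference was 0.40 ± 0.19, interval -0.02 to 0.81, adjusted p = 0.356. None of these passed the threshold.

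P-glycoprotein, the broad drug efflux pump, is encoded in the mouse by the neighbouring genes Abcb1a and Abcb1b on chromosome 5. Abcb1a spans chr5:8660077-8748575 and Abcb1b chr5:8798147-8866315, both on the plus strand (GENCODE, GRCm38). Their coding sequences are each 3828 bases long and 88% identical over the aligned bases. The longest identical run covers 338 bases, coding bases 1357 to 1694 of Abcb1a and 1366 to 1703 of Abcb1b. Both edges of that run are shown because a read that falls inside it names neither gene. Capitals mark 40 bases inside the run and lower case the 20 bases outside it, 5′ to 3′ on the coding strand of the GENCODE transcripts.
Abcb1a, 5′ edge: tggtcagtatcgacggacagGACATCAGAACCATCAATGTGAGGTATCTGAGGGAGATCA
Abcb1b, 5′ edge: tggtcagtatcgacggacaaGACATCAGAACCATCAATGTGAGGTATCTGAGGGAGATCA
Abcb1a, 3′ edge: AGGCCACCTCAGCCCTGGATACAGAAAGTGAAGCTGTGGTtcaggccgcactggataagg
Abcb1b, 3′ edge: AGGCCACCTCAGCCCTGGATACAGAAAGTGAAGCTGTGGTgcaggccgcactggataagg
Of all 50-base windows in the Abcb1a coding sequence 20.3% also occur in Abcb1b, and of all 100-base windows 9.84%. How the authors' counting divided shared reads between the genes is not known here, so the level of each copy is uncertain.

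Abcb1b stood at 1057, 1168 and 877 normalized counts in old IL27RA+ libraries and at 685, 684 and 1049 in old IL27RA- libraries. It stood at 273, 319 and 584 in young IL27RA+ libraries and at 673, 313 and 131 in young IL27RA- libraries. All 6 old libraries were above all 6 young ones, a separation in this direction that 1.39% of the genes tested showed (2.06% in either direction). The nearest pair was old IL27RA- replicate 2 and young IL27RA- replicate 1. The averaged age difference was 1.42 ± 0.37 (log2, SE), interval 0.64 to 2.20, with an unadjusted p of 0.00152 and a limma adjusted p of 0.0641. It was 1.47 ± 0.52 in IL27RA+ cells (adjusted p = 0.389) and 1.38 ± 0.52 in IL27RA- cells (adjusted p = 0.288). With young IL27RA- replicate 3 left out the IL27RA- value was 0.78, and it was 1.95 with replicate 1 of that group left out. Without young IL27RA- replicate 1, the highest young library, the averaged difference passed the threshold at 1.71 ± 0.32 (adjusted p = 0.0143), and it also did so with library weights (adjusted p = 0.0321) and with voom on the recovered reads (1.48, adjusted p = 0.0437). Over all genes these 3 settings called 432, 348 and 262, against 274 in the main fit. Over all alternatives the adjusted p of Abcb1b ran between 0.0143 and 0.155. The averaged IL27RA+ minus IL27RA- difference was 0.33 ± 0.37 (adjusted p = 0.891), and the fractions overlapped at both ages.

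Abcb1a stood at 699, 848 and 211 normalized counts in old IL27RA+ libraries and at 421, 310.3 and 225 in old IL27RA- libraries. It stood at 132, 55.7 and 11.3 in young IL27RA+ libraries and at 183, 506 and 337 in young IL27RA- libraries. The 3 young IL27RA+ libraries were the lowest of the 12 and lay below every library of the other groups, all of which overlapped each other. Old minus young was 3.47 ± 0.83 (log2, SE) in IL27RA+ cells, interval 1.69 to 5.25, unadjusted p = 0.00086 and limma adjusted p = 0.112. In IL27RA- cells it was -0.03 ± 0.83, interval -1.81 to 1.75, adjusted p = 0.997. Averaged over the fractions it was 1.72 ± 0.59, interval 0.46 to 2.98, adjusted p = 0.173. With library weights the IL27RA+ difference passed the threshold (3.47 ± 0.76, adjusted p = 0.0415), and over the alternatives its adjusted p ran between 0.0415 and 0.471. Library weights called 138 of all genes in that comparison, against 63 in the main fit. IL27RA+ minus IL27RA- was 0.70 ± 0.83 in old cells (adjusted p = 1) and -2.80 ± 0.83 in young cells (adjusted p = 0.385), and averaged -1.05 ± 0.59 (adjusted p = 0.700). The difference between the ages of that sort difference was 3.50 ± 1.18, unadjusted p = 0.00963 and adjusted p = 0.872, and no gene of the 14803 was called in that comparison (0%).

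The share of Abcb1a in the pair varied widely between libraries of the same group. It was 39.8%, 42.1% and 19.4% in old IL27RA+, 38.1%, 31.2% and 17.7% in old IL27RA-, 32.6%, 14.8% and 1.89% in young IL27RA+ and 21.4%, 61.7% and 71.9% in young IL27RA- libraries. In young IL27RA- cells the library with the most Abcb1b had the least Abcb1a, and replicate 3 had the least Abcb1b. Summed over the pair, a measure chosen after the values were seen and therefore given with no test, old cells held 1756, 2015 and 1087 normalized counts in the IL27RA+ libraries and 1105, 994 and 1273 in the IL27RA- libraries. Young cells held 404, 375 and 596 in the IL27RA+ and 857, 819 and 468 in the IL27RA- libraries. All 6 old sums were above all 6 young sums, as the Abcb1b values alone were. No share over other summed pairs of genes was computed. The fitted age difference of the sum was 1.25 ± 0.25 (log2, SE) averaged over the fractions, 1.80 ± 0.35 in IL27RA+ cells and 0.70 ± 0.35 in IL27RA- cells. The IL27RA- age value of the sum was 0.42 without young IL27RA- replicate 3. The sort difference of the sum had opposite signs at the 2 ages, 0.49 ± 0.35 in old cells and -0.62 ± 0.35 in young cells, and averaged -0.07 ± 0.25. The difference between the ages of that sort difference was 1.11 ± 0.49. Because the sum was chosen after its values were seen, these SE describe the fit and give no test of it.

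**Figure D3:**
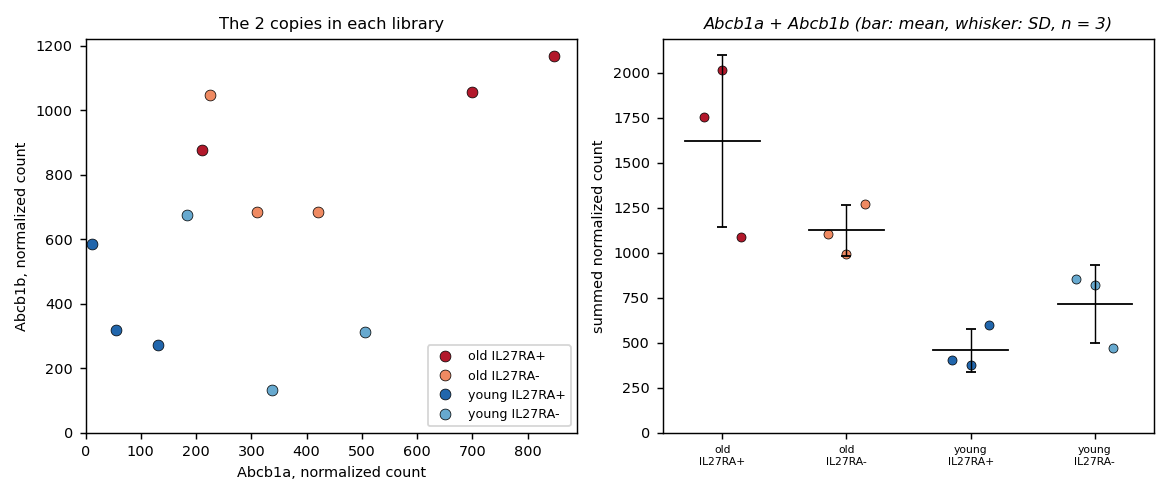
Left, Abcb1b against Abcb1a in each of the 12 libraries (both axes linear, normalized counts, coloured by group). Right, their sum by group, with points for libraries, bars for means and whiskers for SD over 3 libraries: the old sums lie between 994 and 2015, and the young ones between 375 and 857.

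The RefSeq promoter table (GRCm38.p6) held windows for 6 of the 8 transporters. The windows of the neighbouring P-glycoprotein genes are shown because their transcripts had different patterns over the groups. Each is the 250 bases before the RefSeq start, 5′ to 3′ on the plus strand, with capitals for matches to 4 core promoter motifs on either strand. The motifs searched were TATAAA, bound by the general factor TBP, and CCAAT, bound by NF-Y. The others were GGGCGG, bound by Sp1, and ACGTG, the core of hypoxia response elements. The Abcb1b window is chr5:8797897-8798146 and the Abcb1a window chr5:8566841-8567090. The Abcb1b window ends next to the GENCODE start of that gene, at 8798147. The RefSeq start of Abcb1a lies far upstream of its GENCODE start, at 8660077, and the bases just before that GENCODE start were not searched.
Abcb1b: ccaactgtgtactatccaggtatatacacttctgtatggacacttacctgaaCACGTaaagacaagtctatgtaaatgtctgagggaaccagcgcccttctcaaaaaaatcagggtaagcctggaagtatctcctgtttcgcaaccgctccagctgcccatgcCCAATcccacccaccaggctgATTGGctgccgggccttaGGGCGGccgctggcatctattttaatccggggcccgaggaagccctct
Abcb1a: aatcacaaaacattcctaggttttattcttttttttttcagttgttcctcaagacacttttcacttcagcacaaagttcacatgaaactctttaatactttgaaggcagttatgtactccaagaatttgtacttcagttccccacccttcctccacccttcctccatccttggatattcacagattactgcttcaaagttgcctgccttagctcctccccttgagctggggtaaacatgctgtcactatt
The Abcb1b window held CCAAT 87 and 66 bases, GGGCGG 48 bases and ACGTG 198 bases before the start. The Abcb1a window, which covers only the distant RefSeq start, held none of the 4 motifs. Of 32817 windows of this length, 12.37% held TATAAA, 33.83% CCAAT, 32.72% GGGCGG and 16.57% ACGTG, so each match is common.

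The ABCC genes code for the multidrug resistance-associated proteins. Abcc1 (chr16:14361558-14475737, plus strand) encodes MRP1, an exporter of glutathione conjugates and leukotriene C4. It stood at 1294, 1099.7 and 1136 normalized counts in old IL27RA+, 1759, 804 and 904 in old IL27RA-, 952, 1026 and 2418 in young IL27RA+ and 954, 1962 and 1637 in young IL27RA- libraries. The groups overlapped, and the old IL27RA+ libraries were the most alike. Old minus young averaged -0.30 ± 0.28 (limma adjusted p = 0.687) and IL27RA+ minus IL27RA- averaged -0.01 ± 0.28 (adjusted p = 0.997, interval -0.61 to 0.60).

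Abcc4 (chr14:118482692-118706219, minus strand) encodes MRP4, which exports cyclic nucleotides and prostaglandins. It stood at 524, 217 and 437 normalized counts in old IL27RA+, 256, 511 and 380.5 in old IL27RA-, 446, 952 and 249.6 in young IL27RA+ and 287, 125 and 792 in young IL27RA- libraries. The young libraries spanned both the highest and the lowest value. Old minus young averaged -0.05 ± 0.47 (interval -1.06 to 0.97, limma adjusted p = 0.980) and IL27RA+ minus IL27RA- 0.32 ± 0.47 (interval -0.70 to 1.33, adjusted p = 0.926).

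Abcc5 (chr16:20331303-20426394, minus strand) encodes MRP5, also an exporter of cyclic nucleotides. It stood at 575, 848 and 999.6 normalized counts in old IL27RA+, 465, 867 and 728 in old IL27RA-, 730.4, 915 and 1137 in young IL27RA+ and 745, 1805 and 512 in young IL27RA- libraries. Young IL27RA- replicate 2 was far above the rest, and all groups overlapped. Old minus young averaged -0.31 ± 0.31 (limma adjusted p = 0.707) and IL27RA+ minus IL27RA- 0.15 ± 0.31 (adjusted p = 0.955).

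The cholesterol exporters Abca1 and Abcg1 had fitted sort differences of opposite sign in young cells, but neither passed the test. Abca1 (chr4:53030787-53159895, minus strand) encodes the pump that loads cholesterol and phospholipid onto lipid-poor apolipoprotein A-I. It stood at 163, 416 and 205 normalized counts in old IL27RA+ libraries and at 268, 171 and 448 in old IL27RA- libraries. It stood at 346, 224 and 259.6 in young IL27RA+ libraries and at 348, 1151 and 587 in young IL27RA- libraries. The young IL27RA- libraries were above the young IL27RA+ ones, by a narrow margin for the nearest pair. IL27RA+ minus IL27RA- was -0.19 ± 0.57 (log2, SE) in old cells (limma adjusted p = 1). In young cells it was -1.18 ± 0.57, interval -2.40 to 0.04, adjusted p = 0.619. Old minus young was -1.17 ± 0.57 in IL27RA- cells (adjusted p = 0.417) and averaged -0.67 ± 0.40 (adjusted p = 0.466).

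Abcg1 (chr17:31057675-31117988, plus strand) encodes the exporter to mature high-density lipoprotein. It stood at 4516, 3390 and 3671 normalized counts in old IL27RA+ libraries and at 1982, 3430.1 and 3512 in old IL27RA- libraries. It stood at 4282, 2893 and 4093 in young IL27RA+ libraries and at 3271, 1936 and 1704 in young IL27RA- libraries. The IL27RA+ libraries were higher on average at both ages but overlapped the IL27RA- ones. IL27RA+ minus IL27RA- averaged 0.58 ± 0.21, interval 0.13 to 1.02, unadjusted p = 0.0142 and limma adjusted p = 0.437. It was 0.41 ± 0.29 in old cells (adjusted p = 1) and 0.74 ± 0.29 in young cells (adjusted p = 0.535). Old minus young averaged 0.22 ± 0.21 (adjusted p = 0.696). Macrophages also express both exporters, and the macrophage markers stood higher in the IL27RA+ fractions, as given above. Their part in the Abcg1 values was not tested.

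**Figure D4:**
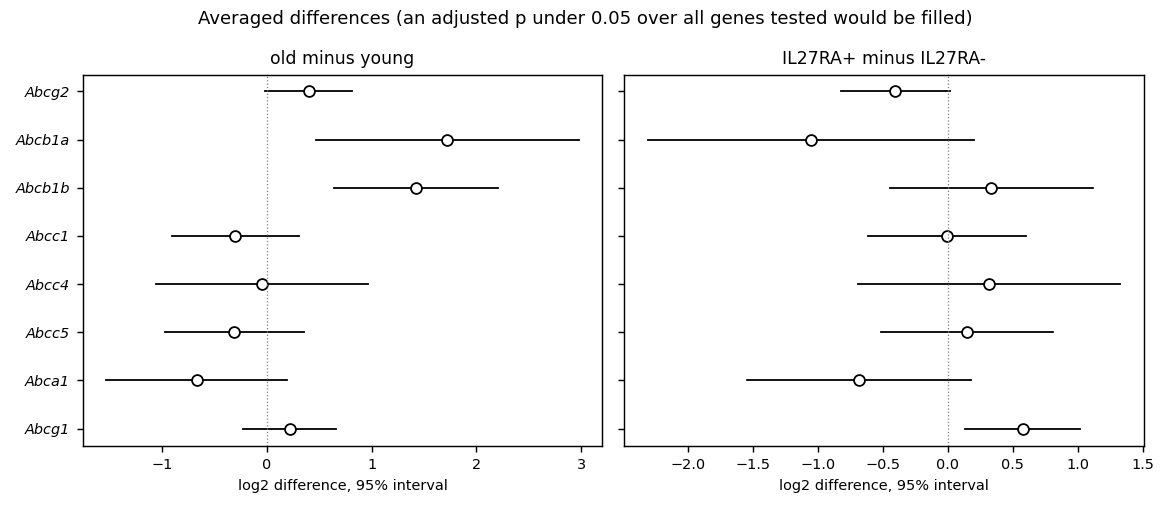
Averaged log2 differences of the 8 transporters (rows), old minus young at the left and IL27RA+ minus IL27RA- at the right, with 95% intervals from limma on 12 libraries. No marker is filled, because no adjusted p was under 0.05, and the intervals of Abcb1a and Abcb1b by age and of Abcg1 by sort lie above 0.

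Groups that did not overlap were counted over the transporters. Between old and young IL27RA+ libraries 3 of the 8 were separated (Abcb1a, Abcb1b and Abcg2, all higher), where 16.9% of all genes tested were separated in either direction, 9.09% in this one, and 0.426% were called. Of the 8, 1 was separated between old and young IL27RA- libraries (Abcb1b, higher), where 14.5% of genes were separated in either direction, 7.8% in this one, and 0.669% were called. In old mice no transporter was separated between the fractions, against 12.6% of all genes, and 0.0203% were called. Between IL27RA+ and IL27RA- libraries of young mice 3 of the 8 were separated (Abca1, Abcb1a and Abcg2, all lower), where 9.78% were separated in either direction, 4.73% in this one, and again 0.0203% were called. Unadjusted limma p-values under 0.05 were reached by 2 transporters by age in IL27RA+ cells, 1 by age in IL27RA- cells, 0 by sort in old cells and 2 by sort in young cells. The shares called above are at the adjusted threshold, and the share of all genes under the unadjusted one was not computed. With voom 0 transporters were called in each of these comparisons. Of all 14803 genes voom called 79 by age in IL27RA- cells, 13 by age in IL27RA+ cells and 0 by sort at either age. The 0 by sort is therefore not particular to the transporters. Across both ages no transporter separated the 6 IL27RA+ from the 6 IL27RA- libraries, against 0.426% of all genes. The age comparison in IL27RA+ cells and the sort comparison in young cells share the young IL27RA+ libraries, so the low values of Abcb1a and Abcg2 there enter both.

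For each transporter the 3 genes with the most similar pattern were found by Pearson's r of log2 values over the 12 libraries among genes past the filter. These are the highest values among all those genes, which share the same libraries, and are given as a description. Abcg2 was most like Selm (r = 0.909), Epas1 (0.901) and Itpk1 (0.875). Epas1, which encodes the hypoxia factor HIF2A, was low, at 4.62, 72.8 and 196 normalized counts in old IL27RA+, 6.74, 209 and 247 in old IL27RA-, 10.3, 0 and 0 in young IL27RA+ and 90.7, 17.2 and 29.0 in young IL27RA- libraries. Abcb1a was most like Nxt1 (0.961), Tnfrsf12a (0.921) and Ccdc57 (0.904), and Abcb1b most like Pkig (0.934), Srgn (0.900) and Ptprk (0.899). Of the ABCC genes, for which only the nearest gene is named, Abcc1 was most like Tnks1bp1 (0.917), Abcc4 like Morc4 (0.881) and Abcc5 like Pou5f2 (0.935). Abca1 was most like Cog4 (0.915) and Nradd (0.912), and Abcg1 most like Arl11 (0.920), Mesp2 (0.917) and Gal3st4 (0.913). Neither P-glycoprotein gene was among the 3 most like the other.

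Of 45 other ABC genes listed, 37 were in the table and 27 passed the filter, and 1 was called by age, where 1.85% of all genes were called. Abca4, known as the retinoid flippase of the eye, was higher in old cells, with an averaged difference of 3.98 ± 0.95 (limma adjusted p = 0.0469). It stood at 247, 399 and 662 normalized counts in old IL27RA+ and 360.1, 411 and 614 in old IL27RA- libraries, against 122, 61.4 and 2.51 in young IL27RA+ and 84.4, 2.15 and 53.4 in young IL27RA- libraries. All old libraries were above all young ones, but 13 of 20 alternatives lost the call, with an adjusted p of up to 0.124. By level per kb the highest of the list were the ATPase gene Abcf2 (624), the antigen peptide transporter genes Tap2 (614) and Tap1 (436), and the ribosome recycling factor Abce1 (402). Abcf2 and Abce1 encode proteins that are not membrane pumps. The list's median age difference was -0.01, against 0.06 over all genes.

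Genes around cholesterol export were mostly without a call. Of 19 genes of sterol efflux and its sterol sensor LXR, 18 passed the filter, and in the averaged age comparison 1 was higher and 1 lower, against 1.85% of all genes called. Apoe, the lipoprotein that accepts cholesterol from these pumps, stood at 8586, 8218 and 7496 normalized counts in old IL27RA+ and 13554, 13488 and 12693 in old IL27RA- libraries, against 6380, 6071 and 6895 in young IL27RA+ and 9307, 6441 and 7420 in young IL27RA- libraries. The groups of the same fraction did not overlap between the ages, and the averaged difference was 0.56 ± 0.13 (limma adjusted p = 0.0340). The call was lost in 13 of 20 alternatives, with an adjusted p of up to 0.0985. Cyp27a1, which makes the LXR ligand 27-hydroxycholesterol, stood at 2.77, 46.9 and 23.4 in old IL27RA+ and 78.0, 36.3 and 26.4 in old IL27RA- libraries. In young libraries it stood at 182, 268 and 245 in IL27RA+ and 177, 326 and 549 in IL27RA- cells, above every old library. Its averaged difference was -3.34 ± 0.71 (adjusted p = 0.0260), and 6 of 20 alternatives lost the call, with an adjusted p of up to 0.0644. The LXR genes Nr1h3 (2.78 ± 1.12, adjusted p = 0.256) and Nr1h2 (0.33 ± 0.21, adjusted p = 0.484) did not pass. None of the 22 measured genes of sterol synthesis and uptake passed in any comparison. Their smallest p by age were those of Mvd (-1.57, adjusted p = 0.180) and the sterol-sensing factor Srebf2 (-0.44, adjusted p = 0.241).

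Among 19 enzymes of glutathione and conjugation, all of which passed the filter, 1 was called by age and 1 by sort, against 1.85% and 0.189% of all genes. Gstm1, a glutathione transferase that makes conjugates of the kind MRP1 exports, stood at 6728, 6619 and 6588 normalized counts in old IL27RA+ and 13499, 10993 and 11269 in old IL27RA- libraries. It stood at 5850.4, 4796 and 5374 in young IL27RA+ and 6792, 3977 and 5379 in young IL27RA- libraries. The old libraries of each fraction were above the young ones of that fraction. The averaged difference was 0.75 ± 0.15 (limma adjusted p = 0.0162) and passed in all 20 alternatives. Within IL27RA- cells it was 1.17 ± 0.21 (adjusted p = 0.0175), lost in 5 of 21 alternatives with an adjusted p of up to 0.148. Hmox1, which encodes heme oxygenase, stood at 1244, 877 and 3203 in old IL27RA+ and 78.0, 383 and 62.8 in old IL27RA- libraries, and at 3432, 1660.2 and 3162 in young IL27RA+ and 199.8, 547 and 420.3 in young IL27RA- libraries. It was higher in every IL27RA+ library than in any IL27RA- library, by 3.24 ± 0.46 averaged over the ages (adjusted p = 0.00888), and 19 of 20 alternatives kept the call (adjusted p = 0.0525 with voom). Hmox1 is abundant in marrow macrophages, whose markers moved the same way, and their part in it was not tested. Of 13 listed xenobiotic, hypoxia and oxidant factors 11 passed the filter and none was called. The 2 with the smallest p by sort were Ahr, the dioxin receptor (-1.85 ± 0.54, adjusted p = 0.296), and the lipid-sensing receptor gene Pparg (4.29, interval 1.10 to 7.49, adjusted p = 0.417).

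**Figure D5:**
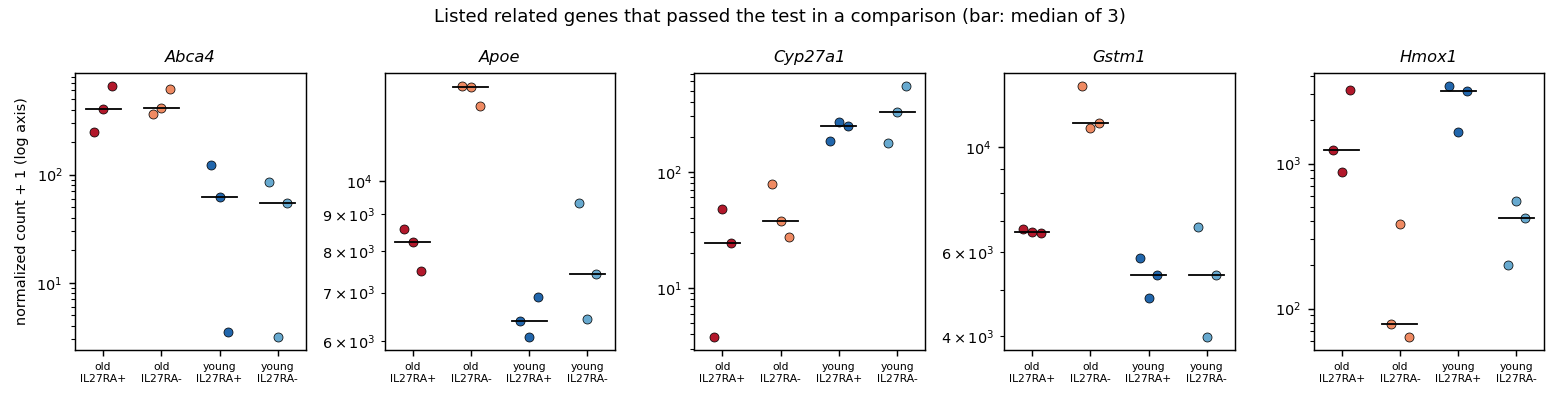
Normalized count + 1 (vertical log axes, 1 panel each) of the related genes that passed the test in a comparison, in 12 libraries by group, with bars at the median of 3. Abca4, Apoe and Gstm1 are higher and Cyp27a1 lower in old than in young libraries of the same fraction, and Hmox1 is higher in IL27RA+ than in IL27RA- libraries.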

How the data were processed

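RNA of 12 libraries was sequenced. The submitters' processing notes name TopHat2 2.1.1, HTSeq, DESeq2 and FastQC 0.11.5. They name no genome build. The authors deposited log2 values, which the values show to be the log2 of a normalized count plus 1, where a normalized count is reads over a size factor. Undoing that scaling returned whole reads in 100% of cells of the table, within 0.001 reads. Of its lines, 1 damaged line and 15 repeats were left out, and 21 gene names turned into dates were restored.

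Differences were tested in R 4.3.3 with limma 3.58.1, variance trend on, from the deposited log2 values of all 12 libraries, 1 mean per group, 14803 genes past the filter, Benjamini-Hochberg adjustment over all of them and a threshold of 0.05. The fit was also run on simulated counts with large age differences only, which does not show how well it finds smaller ones. Alternatives were another pseudocount (10), other filters, leaving out each library, a replicate block, library weights, library totals, pairs of groups, and voom on recovered reads. Leaving out the 2 least weighted libraries, and summing Abcb1a and Abcb1b, were chosen after seeing the data. Named genes were all 8 transporters, called members of each list or the 2 with the smallest p, the 4 highest other ABC genes, and the 3 most similar genes, of which 1 is not reported here. Epas1 values, and Nr1h3 and Nr1h2, are added to these and were chosen after their values were seen. The transporters and lists were chosen with earlier results of these data known. Exon lengths and coordinates are from GENCODE (GRCm38). Amplified reads are not independent molecules, and a floor of 3 reads is 1.93 to 3.77 normalized counts.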

Additional observations from a re-analysis of the deposited data

How the results depend on the processing

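No transporter was called under any alternative except these. In the averaged age comparison the number called was 0 to 1 when single libraries were left out (1 without young IL27RA- replicate 1), and 1 with library weights and with voom on recovered reads, each time Abcb1b. In old against young IL27RA+ cells it was 1 with library weights, which was Abcb1a. Library weights called more genes in general, 138 of 14803 in that comparison against 63 in the main fit. In the averaged age comparison they called 348 against 274.

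Leaving out single libraries turned the sign of small differences that passed no threshold. The averaged sort difference then ran between -0.22 and 0.17 for Abcc1, between -0.0046 and 0.66 for Abcc4 and between -0.051 and 0.40 for Abcc5. The averaged age difference of Abcc4 ran between -0.37 and 0.30, and the Abcb1a age difference in IL27RA- cells between -0.42 and 0.31. The averaged sort difference of Abcc1 was 0.11 with library weights and 0.039 with library totals. Without the 2 least weighted libraries (young IL27RA- replicate 2 and old IL27RA- replicate 1) it was 0.28, that of Abcc4 was -0.13, the averaged age difference of Abcc5 was 0.074 and the Abcb1a age difference in IL27RA- cells 0.089. The causes were not tested. The averaged age difference of the summed P-glycoprotein pair ran between 1.11 and 1.38 over its alternatives, and its averaged sort difference between -0.21 and 0.065. These ranges do not correct for choosing the sum after its values were seen.

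Other differences that passed no threshold kept their sign but moved by over 1.5 times when a single library was left out, and the values farthest from the full fit follow. By sort these were Abcg2 in old cells (-0.56 without old IL27RA- replicate 1, -0.12 without old IL27RA- replicate 2) and in young cells (-0.29 without young IL27RA- replicate 1), Abcg1 in old cells (0.14 without old IL27RA- replicate 1), and Abca1 in young cells (-0.73 without young IL27RA- replicate 2). Abcb1a by sort was -0.59 averaged and -1.87 in young cells without young IL27RA+ replicate 3, and in old cells 0.32 without old IL27RA+ replicate 2 and 1.32 without old IL27RA+ replicate 3. The averaged sort difference of Abcb1b in turn ran between 0.035 (young IL27RA- replicate 3 left out) and 0.62 (replicate 1 left out). By age, Abca1 was -0.72 in IL27RA- cells and -0.45 averaged without young IL27RA- replicate 2. Averaged by age, Abcc1 was -0.086 without young IL27RA+ replicate 3 and -0.48 without old IL27RA- replicate 1, and Abcc5 ran between -0.51 (young IL27RA- replicate 3 left out) and -0.054 (replicate 2 left out). Abcg1 by age ran between 0.12 (young IL27RA- replicate 3 left out) and 0.36 (replicate 1 left out).

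The number of genes called by age over all genes was 274, and 140 to 432 when single libraries were left out, lowest without old IL27RA+ replicate 2 and highest without young IL27RA- replicate 1. Library totals in place of size factors shifted the median age difference by -0.07. Deviations of same-numbered libraries correlated at -0.05 to 0.11 over 18 pairs, and those of differently numbered libraries of other groups at -0.07 to 0.07. The 2 fractions of the same age and number correlated at 0.031, 0.0039 and 0.096 in old and at 0.106, 0.028 and 0.017 in young cells. Of 12 libraries, 7 correlated best with one of their own number. Whether same-numbered libraries share a mouse or a sort was not tested. With the replicate block no transporter was called (0), and 307 genes were called by age. That block joined libraries of the same number over all 4 groups, old and young. A block for the 2 fractions of the same age and number was not fitted, so the tests count these fractions as independent. With 3 libraries of 50 cells a group, intervals of the transporters span up to several log2 units.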
